A study of Mus musculus with 12 samples.

Results

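The genes that conjugate drugs, hormones and other small molecules in the liver were examined as 3 families in bulk RNA-seq of 12 mouse livers. They are the UDP-glucuronosyltransferases (Ugt), the glutathione S-transferases (Gst) and the cytosolic sulfotransferases (Sult). Genes were taken by mouse symbol from a count table of 27179 genes, without pseudogenes, and had to hold at least 10 counts in 3 or more libraries. Of 61 genes with such symbols, 47 met this minimum: 16 of 20 Ugt, 20 of 22 Gst and 11 of 19 Sult genes. The 14 left out reached at most 22 counts in any library. The Sult genes Sult2b1, Sult3a1 and Sult4a1 met the minimum only because of the livers of mice on chow that received oncogenes, so that a difference for them was built into the selection.

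The livers formed 4 groups of 3 mice, with 1 library per mouse. Male mice aged 8 weeks received chow (CD) or a low-protein diet (LPD), from 1 week ahead of injection until collection. Empty vector (Vec) or oncogene plasmids entered the liver by hydrodynamic tail vein injection with Sleeping Beauty transposase. The oncogenes were human c-MET and ΔN90-β-catenin, a form of β-catenin that lacks its N-terminus and escapes degradation, both driven by the EF1α promoter in the cells that took up plasmid. Livers of all 4 groups were collected when the oncogene mice on CD reached their end point, after about 5 h of fasting. The paper reports a lower tumor burden in oncogene mice on LPD than on CD at this time. Diet and tumor burden thus cannot be told apart in the oncogene livers. The 2 groups that received oncogenes, CD c-MET/β-catenin and LPD c-MET/β-catenin, are called oncogene livers, and CD Vec and LPD Vec are called vector livers. The labels name the vector mice WT and the cell type hepatocyte, but the tissue is whole liver. In bulk tissue, fewer cells of a type and less RNA per cell cannot be told apart.

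Phase II conjugation makes a compound more soluble so that it leaves in bile or urine. Ugt enzymes sit in the endoplasmic reticulum and transfer glucuronic acid from UDP-glucuronic acid to bilirubin, steroids, bile acids and drugs. The Ugt1a genes share their last exons and differ in a first exon of their own. Gst enzymes join glutathione to electrophiles and are sorted into classes such as alpha, mu, pi and theta. Sult enzymes transfer sulfate from PAPS to phenols, steroids, amines and bile acids. Many of these genes are expressed in a zone of the liver lobule, and β-catenin signaling is the main regulator of the pericentral zone.

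Several members are near-identical copies, and a read from a shared stretch cannot be assigned by sequence to a single copy. The following stretches of coding sequence (GENCODE M21, coding positions counted from the start codon) are shown because the values of Gstp2 and Ugt2b38, the minor copies, depend on telling them apart from Gstp1 and Ugt2b5. Capitals mark the bases at which the pair differs. The Gstp pair shares 98.1% of aligned coding bases and is shown from position 1 to 60. The Ugt2b pair shares 97.0% and is shown from position 1467 to 1526.
Gstp1: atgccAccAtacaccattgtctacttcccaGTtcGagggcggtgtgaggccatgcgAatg
Gstp2: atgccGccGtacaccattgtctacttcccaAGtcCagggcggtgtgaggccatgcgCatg
Ugt2b5: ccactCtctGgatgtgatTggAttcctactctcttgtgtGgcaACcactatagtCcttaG
Ugt2b38: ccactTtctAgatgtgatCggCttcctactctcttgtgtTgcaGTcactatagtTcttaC
The other pairs above 95% were Ugt1a6a with Ugt1a6b (98.4%), Gsta1 with Gsta2 (97.6%) and Ugt1a10 with Ugt1a9 (95.3%). How reads with several matches were counted is not given in the sources used here, so the values of these pairs are uncertain within the pair. Sharing was not confined to the pairs. Of coding stretches of 50 bases, 70.6% for Gstt3, 52.1% for Ugt1a5, 49.0% for Ugt1a9 and 44.3% for Ugt1a1 also occurred in another gene. Values of these genes carry the same limit.

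The mu-class genes of the Gst family lie together on chromosome 3, and the 250 bases upstream of the start sites of 3 of them are given because Gstm2 and Gstm3 had the largest increases of the class whereas Gstm5 was not called between oncogene and vector livers with the main scaling. The sequences are from RefSeq (GRCm38.p6), written along the strand of the gene, at chr3:107986421-107986670 for Gstm2 (minus strand), chr3:107969175-107969424 for Gstm3 (minus strand) and chr3:107895604-107895853 for Gstm5 (plus strand).
Gstm2: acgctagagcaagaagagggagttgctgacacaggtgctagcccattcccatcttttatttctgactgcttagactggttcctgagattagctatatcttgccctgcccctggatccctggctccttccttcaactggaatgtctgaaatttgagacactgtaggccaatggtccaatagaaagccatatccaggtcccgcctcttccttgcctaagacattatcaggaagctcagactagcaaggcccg
Gstm3: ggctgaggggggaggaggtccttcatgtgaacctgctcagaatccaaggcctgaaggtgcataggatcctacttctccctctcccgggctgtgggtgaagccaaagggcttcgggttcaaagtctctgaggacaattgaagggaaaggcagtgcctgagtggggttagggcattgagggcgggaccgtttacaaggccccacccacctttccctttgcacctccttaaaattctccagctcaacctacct
Gstm5: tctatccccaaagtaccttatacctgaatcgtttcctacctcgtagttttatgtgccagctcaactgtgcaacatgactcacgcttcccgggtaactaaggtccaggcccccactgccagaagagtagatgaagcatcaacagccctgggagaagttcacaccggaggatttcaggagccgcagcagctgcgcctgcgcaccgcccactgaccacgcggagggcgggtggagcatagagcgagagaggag
Aligned end to end, Gstm2 and Gstm3 shared 45.9% of positions in these windows, Gstm2 and Gstm5 46.5%, and Gstm3 and Gstm5 40.0%. Over all pairs of the mu-class genes the range was 40.0% to 47.7%. With the same alignment, coding sequences of Gst genes of different classes shared 45.1% to 52.7%. The values of these windows are thus no sign of particular similarity.

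Short motifs of 3 factors were searched on both strands from 250 bases before to 50 bases after the start site, in the RefSeq promoters of the 41 members that had one. The core antioxidant response element, TGACNNNGC, was present for 3 members, Gsta3, Gstm5 and Gstm7, and in 12.4% of all 32851 promoters. The TCF motif CTTTGAT was present for 1 member, Sult2a8, and in 3.73% of all promoters. The HNF1 palindrome was found for 0 members and in 0.009% of all promoters. The matches are printed with the motif in capitals.
Gsta3: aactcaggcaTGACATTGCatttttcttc
Gstm5: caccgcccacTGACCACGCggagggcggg
Gstm7: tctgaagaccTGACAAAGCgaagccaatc
Sult2a8: tcaaattcacATCAAAGtgttgggagc
The Sult2a8 match reads in the reverse orientation, ATCAAAG. The windows lie at chr1:21240335-21240634, chr3:107895604-107895903, chr3:107931565-107931864 and chr7:14446538-14446837 in this order. A match describes these letters and is not evidence of a bound site.

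Levels are CPM (the counts of a gene as a rate over all counts of the library), scaled by the trimmed mean of M values (TMM). The 12 libraries held 19476209 to 31990267 counts over genes. Differences are log2 fold changes from edgeR's quasi-likelihood test fitted to all 12 libraries and 13947 genes, and a gene was called at a Benjamini-Hochberg adjusted p under 0.05. Called refers to this fit unless another fit or DESeq2 is named. All 47 members were tested. Defining hepatocyte markers were abundant in every group, with summed levels of Alb, Ttr, Apoa1, Apoa2 and Hnf4a between 60893 and 113460 CPM, most of it Alb. Ttr and Apoa2 were lower in CD oncogene than in CD Vec livers, with log2 fold changes of -0.87 ± 0.20 (SE) and -1.26 ± 0.22 (SE) and edgeR adjusted p of 0.00542 and 0.00114, and the other 3 were not called in this comparison. The header of the table gives each column a dataset number whose meaning is not stated. The numbers were split here into 3 runs, with steps of 10 and 17 between runs and of at most 3 within them. CD oncogene replicates 1 and 2 make up run 1. Replicate 1 of LPD Vec and replicates 1 and 2 of CD Vec make up run 3, the other 7 libraries are run 2, and run and group thus overlap in part.

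The Ugt and Sult families were lower in sum in the CD oncogene livers than in the CD Vec livers, whereas the Gst family was not separated between these groups. Summed Ugt levels were 4536 ± 680 CPM (SD, n = 3) in CD Vec, 2052 ± 593 in CD oncogene, 3846 ± 136 in LPD Vec and 4231 ± 182 in LPD oncogene livers. The CD oncogene libraries, at 1437 to 2621 CPM, lay below all other libraries, the lowest of which had 3713 CPM. Summed Sult levels were 1498 ± 293 CPM in CD Vec, 636 ± 95.2 in CD oncogene, 1075 ± 117 in LPD Vec and 757 ± 207 in LPD oncogene livers. For Sult, the oncogene groups on both diets lay below their vector groups without overlap. Summed Gst levels were 4750 ± 245, 6336 ± 2469, 4259 ± 368 and 5199 ± 990 CPM in the same order, and the CD oncogene libraries spanned 3733 to 8645 CPM, which covers the range of the CD Vec libraries. These sums are dominated by abundant transcripts and are given as description.

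**Figure D1:**
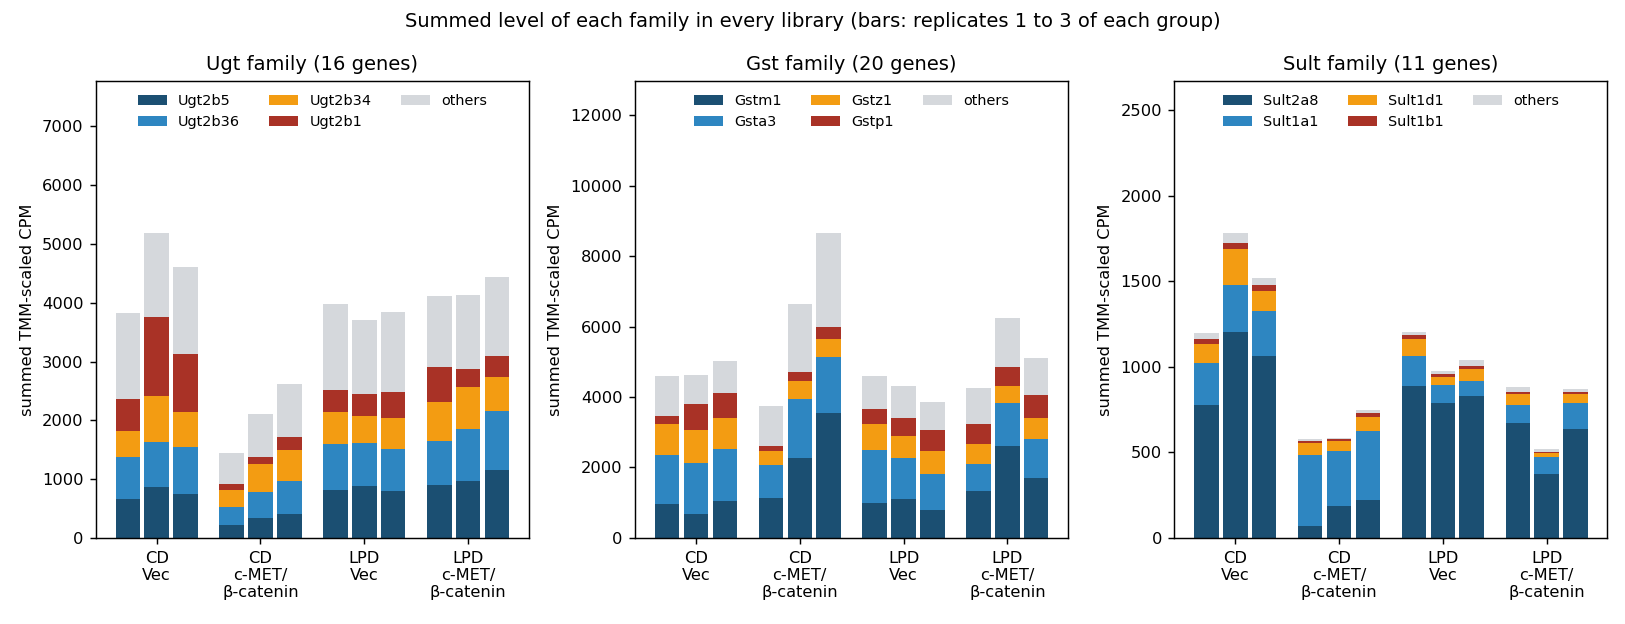
Stacked bars give the summed TMM-scaled CPM of each family in each of the 12 libraries, with the 4 members of highest mean CPM shown separately and the rest as others. The 3 CD oncogene bars of the Ugt family are the lowest of that panel, and Gstm1 exceeds Gsta3, and Sult1a1 exceeds Sult2a8, in all 3 CD oncogene libraries.

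The makeup of each family differed along with its sum. Gsta3, an alpha-class enzyme, led the Gst sum in CD Vec livers with 30.4%, and Gstm1, the most abundant mu-class enzyme, led it in CD oncogene livers with 36.5%. Sult2a8, a sulfotransferase of the Sult2a class that acts on bile acids, made up 67.9% of the Sult sum in CD Vec livers and 24.7% in CD oncogene livers, where Sult1a1, a phenol sulfotransferase, made up 60.1%. In LPD oncogene livers Sult2a8 again led, with 74.2%. The Ugt sum was spread more evenly, and its leading member took 21.2% to 23.9% in the 4 groups.

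On CD, 20 of the 47 members were lower and 8 were higher in oncogene than in vector livers. Over all genes tested in this comparison, 16.7% were called lower and 18.7% higher. By family, 10 of 16 Ugt genes were lower and 0 higher, 4 of 20 Gst genes were lower and 5 higher, and 6 of 11 Sult genes were lower and 3 higher. The 3 Sult genes that were higher are the ones that met the count minimum only through the CD oncogene livers. The median log2 fold change was -0.96 for Ugt, 0.34 for Gst and -1.08 for Sult genes, with a median of -0.01 over all genes tested.

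The same comparison scaled by total counts alone moved the median of all genes by 0.288 on the log2 scale and gave 15 members lower and 12 higher. By family these were 7 Ugt genes lower and 0 higher, 3 Gst genes lower and 8 higher, and 5 Sult genes lower and 4 higher. With this scaling the median of all genes was 0.28, and the share of all genes called was not obtained. The member counts therefore describe how calls moved and cannot be set against all genes. The calls of Gstp1, Sult1d1, Ugt1a6a, Ugt1a6b and Ugt2b36 were lost with total counts, and Gstm5, Gstp2, Gstp3 and Sult1a1 were called higher. With only the CD groups in the fit, the calls of Gstm7, Gstp1, Sult1c2, Ugt1a6a and Ugt1a6b were lost. With these runs of header numbers as a term in the fit, 4 members were lower and 4 higher, all of them among the 28 of the fit without this term. The 8 were Gstm1, Gstm2, Gstm3, Gstm6, Gsto1, Sult2a7, Ugt2a3 and Ugt3a1. The share of all genes called with this term was not obtained, so the fall in calls cannot be set against all genes. All 28 log2 fold changes kept their sign with this term, at 43.2% to 143% of their size without it (median 83.5%). Within run 2, the difference between its 1 CD oncogene and 1 CD Vec library was 26.4% to 167% of that over all libraries for these members (median 85.7%), as a description of libraries that had also given the calls. These differences were taken from means of log2(CPM + 0.5) and are not edgeR log2 fold changes. DESeq2 called all 28 and also Gstp2 higher and Gsta2, Gstt3 and Ugt1a10 lower. CD Vec replicate 2 stood apart from the other vector livers for several members below, and without it 19 members were lower and 6 higher.

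**Figure D2:**
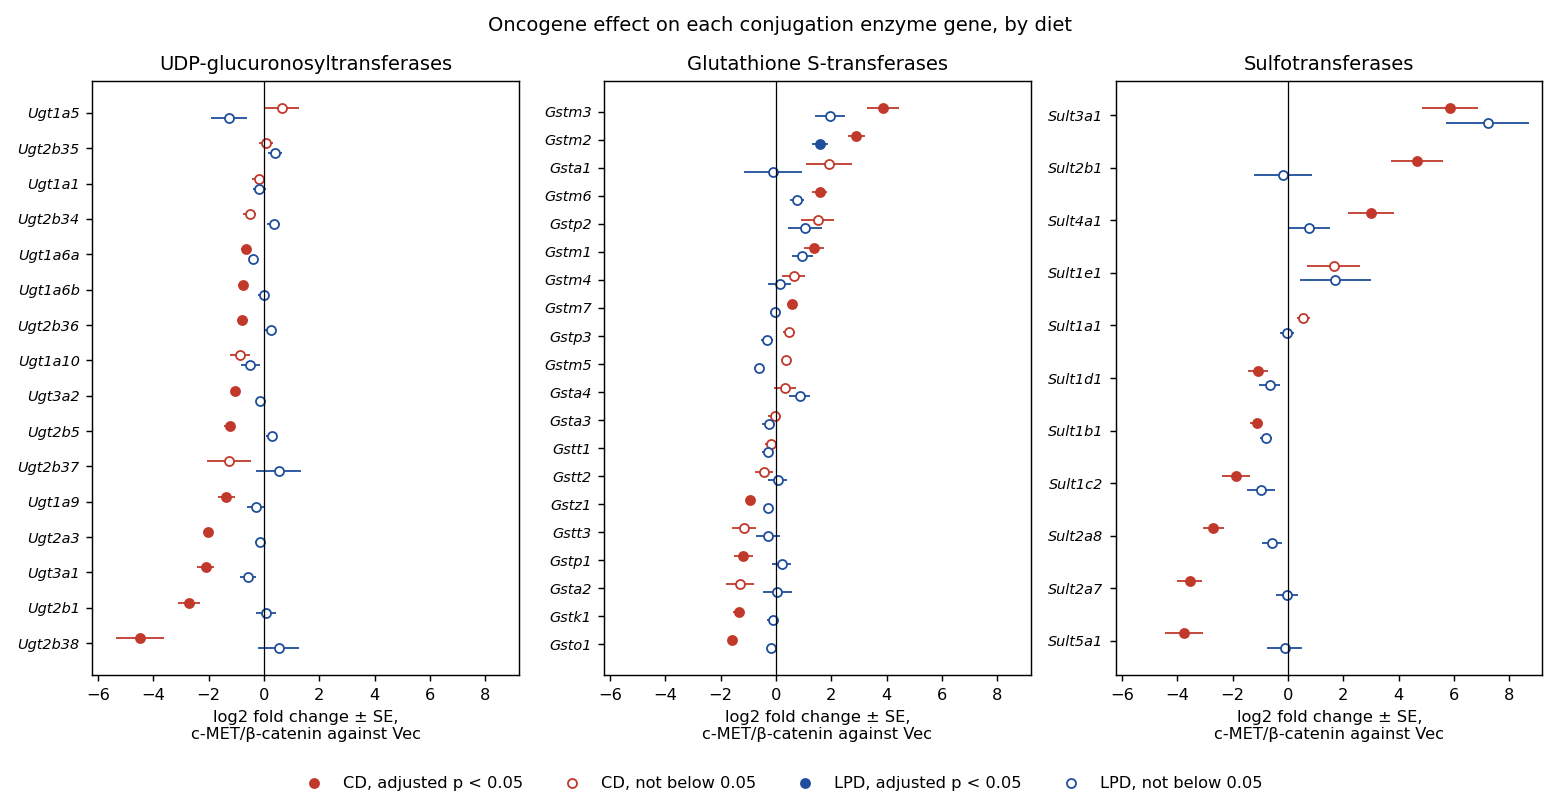
Each row is 1 member, and points give the log2 fold change of oncogene against vector livers with bars of 1 SE, on CD in red and on LPD in blue, filled where the adjusted p was under 0.05. On CD 10 Ugt points are filled and all lie left of 0, the filled points right of 0 in the Gst panel are all Gstm genes (with total counts Gstp2 and Gstp3 were also called higher), and the only filled LPD point is Gstm2.

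Among the Ugt genes the largest falls on CD were in the Ugt2 cluster on chromosome 5, whose 8 members lie between positions 86889770 and 87424203 (GRCm38). Ugt2b1, at chr5:86916639-86926503, was the leading Ugt gene of CD Vec livers by CPM, and enzymes of its subfamily act on steroids and drugs. Ugt2b1 stood at 548, 1341 and 990.4 CPM in the CD Vec livers, 102, 112 and 225 in the CD oncogene livers, 378, 369.7 and 443 in the LPD Vec livers and 606, 306 and 346 in the LPD oncogene livers. All CD oncogene values were below every other library. The log2 fold change on CD was -2.71 ± 0.40 (SE) with an edgeR adjusted p of 0.000395.

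Ugt2a3, a neighbor in the same cluster, stood at 327, 414 and 358 CPM in the CD Vec livers, 75.5, 83.7 and 112 in the CD oncogene livers, 239, 193 and 219 in the LPD Vec livers and 185, 164 and 236 in the LPD oncogene livers. All 3 CD oncogene values were again below the rest, and the CD Vec values were above the other 9 libraries. It fell by 2.02 ± 0.19 (SE) on the log2 scale on CD (edgeR adjusted p = 3.16e-05), the smallest adjusted p of the Ugt family in this comparison.

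Ugt2b5 and Ugt2b36 had the highest levels per kilobase of exon in the family. Ugt2b5 stood at 656, 863 and 748 CPM in the CD Vec livers, 227, 332 and 399.7 in the CD oncogene livers, 807, 880.0 and 806 in the LPD Vec livers and 898, 970.2 and 1160.1 in the LPD oncogene livers. Its CD oncogene values did not overlap with any other group, and its log2 fold change on CD was -1.24 ± 0.20 (SE) (edgeR adjusted p = 0.000643). Ugt2b36 stood at 718, 766 and 793 CPM in the CD Vec livers, 307, 449 and 565 in the CD oncogene livers, 783, 730.1 and 706 in the LPD Vec livers and 752, 882 and 992 in the LPD oncogene livers, with a log2 fold change on CD of -0.79 ± 0.20 (SE) (edgeR adjusted p = 0.00872). The Ugt2b36 call was lost with total counts (-0.50, adjusted p = 0.058) and with the run term (-0.42, adjusted p = 0.438).

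Ugt2b38, the near-identical copy of Ugt2b5 shown above, had the largest fall of the family from a far lower level. It stood at 5.4, 71 and 17 CPM in the CD Vec livers, 1.07, 1.71 and 1.38 in the CD oncogene livers, 6.33, 13.9 and 15.7 in the LPD Vec livers and 25.6, 17 and 9.14 in the LPD oncogene livers. CD Vec replicate 2 was the highest of all libraries, and the CD oncogene values were the lowest. Its log2 fold change on CD was -4.49 ± 0.86 (SE) (edgeR adjusted p = 0.00226), and -3.03 without CD Vec replicate 2 (edgeR adjusted p = 0.0040). With the counts of Ugt2b5 and Ugt2b38 summed, the log2 fold change was -1.29 ± 0.21 (SE) and the edgeR adjusted p was 0.000589. Ugt2b34, Ugt2b35 and Ugt2b37 of the same cluster were not called on CD, with log2 fold changes of -0.52, 0.07 and -1.27, and that of Ugt2b37 turned to 0.88 without CD Vec replicate 2.

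**Figure D3:**
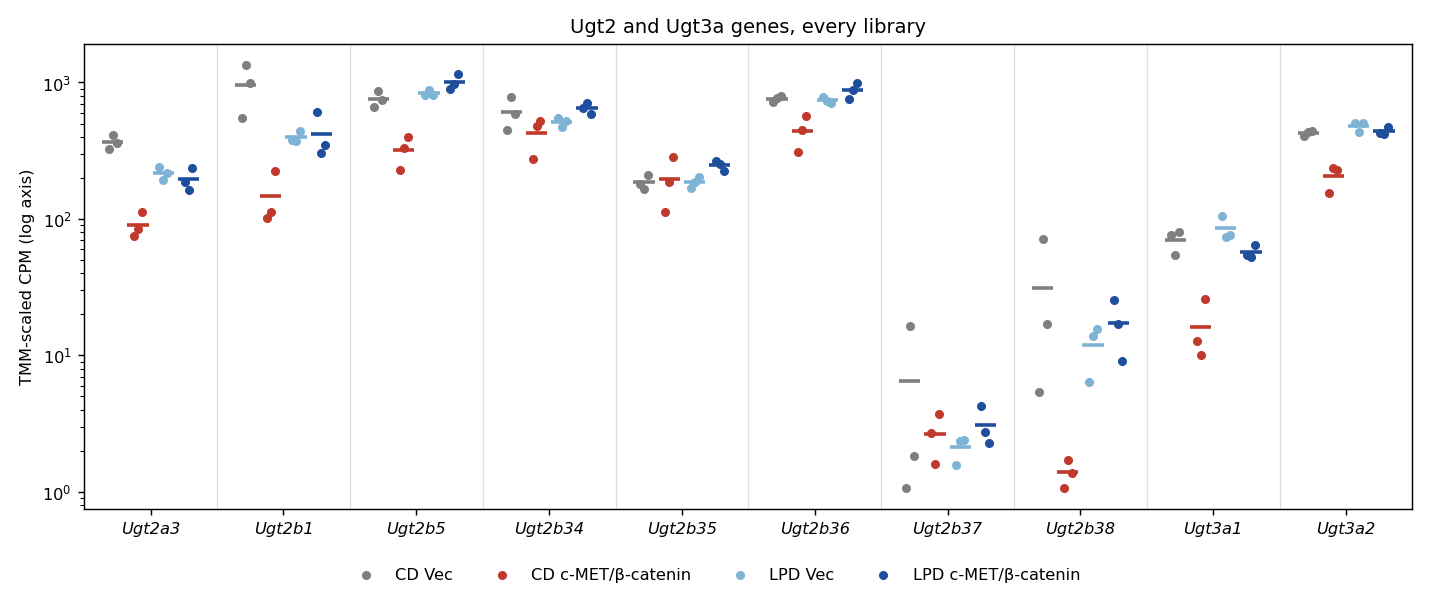
Points give TMM-scaled CPM on a log axis for the 8 Ugt2 genes and 2 Ugt3a genes in every library, colored by group, with a line at the mean of 3 libraries. The CD oncogene points lie below those of the other 3 groups for Ugt2a3, Ugt2b1, Ugt2b5, Ugt2b36, Ugt2b38, Ugt3a1 and Ugt3a2, and overlap with them for Ugt2b34, Ugt2b35 and Ugt2b37.

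Both Ugt3a genes, which use other sugar donors than glucuronic acid, fell on CD, Ugt3a1 by 2.11 ± 0.31 (SE) and Ugt3a2 by 1.05 ± 0.16 on the log2 scale, with edgeR adjusted p of 0.000396 and 0.000457. In the Ugt1a locus on chromosome 1, the forms moved unequally. Ugt1a9, which acts on phenols, stood at 291, 159.9 and 237 CPM in the CD Vec livers, 54.5, 82.8 and 131 in the CD oncogene livers, 296, 226 and 245 in the LPD Vec livers and 146, 239.8 and 243 in the LPD oncogene livers. The CD oncogene values were below all others, and the log2 fold change on CD was -1.36 ± 0.32 (SE) (edgeR adjusted p = 0.0064). Ugt1a6a and Ugt1a6b, a copied pair of phenol-conjugating forms, were called lower with log2 fold changes of -0.65 and -0.76. Both calls were lost with total counts (edgeR adjusted p = 0.138 and 0.074), with only the CD groups in the fit (0.054 and 0.0601) and with the run term (0.16 and 0.0707), and that of Ugt1a6a also without CD Vec replicate 3 (0.0614). Ugt1a1, the bilirubin-conjugating form, was not called, at -0.19 ± 0.24 (SE) and an edgeR adjusted p of 0.561.

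With TMM scaling, all 5 Gst genes called higher on CD were mu-class genes, and with total counts 6 mu-class genes and the pi-class genes Gstp2 and Gstp3 were. The mu-class genes lie between positions 107895854 and 108045179 of chromosome 3, and the other 2 of the 7, Gstm4 and Gstm5, had log2 fold changes of 0.64 and 0.35 that were not called with TMM scaling. Gstm3, at chr3:107963696-107969174, stood at 48.8, 21.7 and 61.4 CPM in the CD Vec livers, 222, 615 and 1085 in the CD oncogene livers, 46.6, 71 and 76.2 in the LPD Vec livers and 218, 353 and 179.9 in the LPD oncogene livers. Oncogene livers were above vector livers on both diets without overlap, and the CD oncogene values spanned 222 to 1085 CPM. The log2 fold change on CD was 3.86 ± 0.57 (SE) (edgeR adjusted p = 0.000491), and 3.25 without CD oncogene replicate 3. Of the 50-base stretches of its coding sequence, 59.3% also occur in another gene. The share was 37.6% for Gstm1, 20.1% for Gstm6, 15.2% for Gstm2 and 0% for the other 3. Exon bases outside the coding sequence were not examined. How reads from such stretches were placed was not measured.

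Gstm2 stood at 45.2, 31.9 and 69.6 CPM in the CD Vec livers, 273, 375 and 446 in the CD oncogene livers, 56.6, 49.8 and 49.6 in the LPD Vec livers and 161, 201 and 109 in the LPD oncogene livers. The 4 groups were ordered with CD oncogene highest, LPD oncogene next and both vector groups lowest, and the oncogene groups did not overlap with each other or with the vector groups. Its log2 fold change on CD was 2.90 ± 0.30 (SE) (edgeR adjusted p = 5.57e-05). Gstm1, the most abundant member of all by level per kilobase, stood at 955, 676 and 1046 CPM in the CD Vec livers, 1139, 2257 and 3532 in the CD oncogene livers, 995, 1117 and 795 in the LPD Vec livers and 1321, 2618 and 1712 in the LPD oncogene livers. Its values in CD oncogene livers were spread widely but lay above all CD Vec livers, with a log2 fold change of 1.37 ± 0.37 (SE) (edgeR adjusted p = 0.0132). The call was lost without CD Vec replicate 2 (adjusted p = 0.051) and without CD oncogene replicate 3 (0.0535).

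Gstm6 stood at 80.3, 57.9 and 71.4 CPM in the CD Vec livers, 118, 203 and 307 in the CD oncogene livers, 55.3, 61.2 and 56.6 in the LPD Vec livers and 107, 101 and 85.1 in the LPD oncogene livers, and rose on CD by 1.58 ± 0.27 (SE) on the log2 scale (edgeR adjusted p = 0.000946). Gstm7 had a smaller increase of 0.58 ± 0.17 (SE) with an edgeR adjusted p of 0.0179, and lost the call without CD Vec replicate 2 (0.057) or CD oncogene replicate 3 (0.073).

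**Figure D4:**
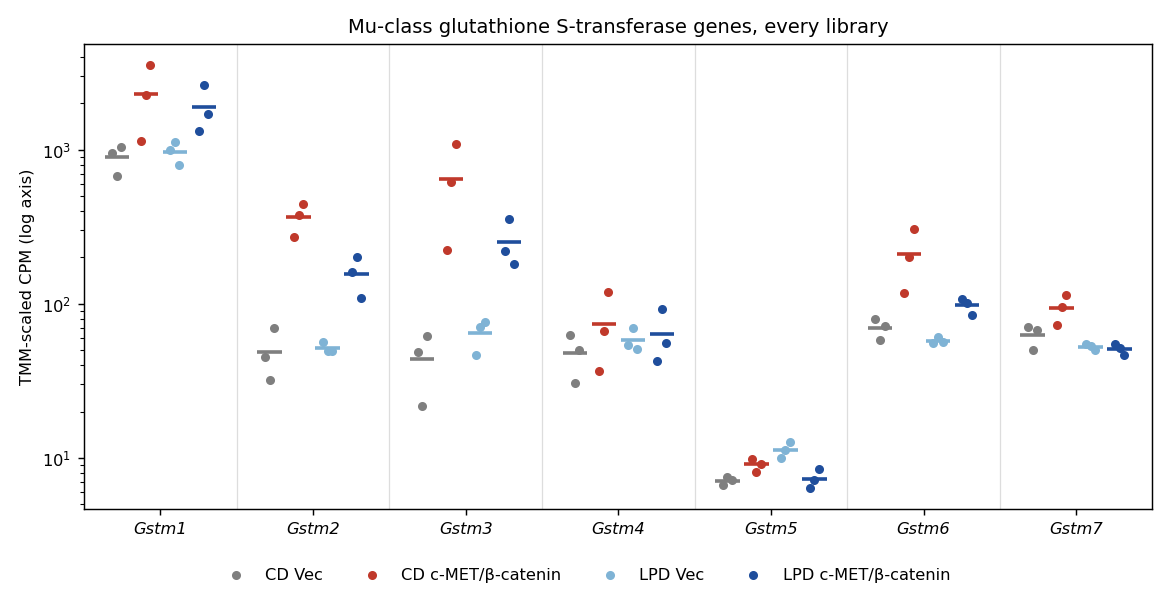
Points give TMM-scaled CPM on a log axis for the 7 mu-class genes in every library, colored by group, with a line at the mean of 3 libraries. For Gstm2 and Gstm3 both oncogene groups lie above both vector groups, and for Gstm5 the LPD Vec libraries, at 10.1 to 12.6 CPM, are the highest.

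The 4 Gst genes called lower on CD were 1 each of the omega, kappa, zeta and pi classes. Gsto1, an omega-class enzyme, stood at 51.6, 61.7 and 44.1 CPM in the CD Vec livers, 17.6, 15.9 and 19.4 in the CD oncogene livers, 55.3, 49.8 and 44.8 in the LPD Vec livers and 35.8, 50.3 and 47.1 in the LPD oncogene livers. Its CD oncogene values were below all 9 others, and the log2 fold change on CD was -1.57 ± 0.16 (SE) (edgeR adjusted p = 4.9e-05). Gstk1, the mitochondrial and peroxisomal kappa-class enzyme, stood at 110.0, 107 and 96 CPM in the CD Vec livers, 33.6, 37.9 and 51 in the CD oncogene livers, 79.1, 51.8 and 48.3 in the LPD Vec livers and 50.7, 50.6 and 64.2 in the LPD oncogene livers. It fell on CD by 1.35 ± 0.20 (SE) on the log2 scale (edgeR adjusted p = 0.00044). Gstz1, which also acts in tyrosine breakdown, stood at 871, 962 and 879 CPM in the CD Vec livers, 391, 507 and 535 in the CD oncogene livers, 732, 613 and 668 in the LPD Vec livers and 565, 484 and 601 in the LPD oncogene livers, and fell by 0.92 ± 0.15 (SE) on the log2 scale (edgeR adjusted p = 0.000746).

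Gstp1, the main pi-class enzyme, stood at 245, 716 and 694 CPM in the CD Vec livers, 158, 257 and 319.9 in the CD oncogene livers, 417, 513 and 591 in the LPD Vec livers and 554, 548 and 649.8 in the LPD oncogene livers. CD Vec replicate 1 was well below the other 2 CD Vec libraries and within the range of the CD oncogene livers. The log2 fold change on CD was -1.17 ± 0.36 (SE) (edgeR adjusted p = 0.0241), and -1.14 with Gstp2 counts added (edgeR adjusted p = 0.0274). It was not called in 4 of the 12 fits that left out 1 library, those without CD Vec replicate 2 (0.0833), CD Vec replicate 3 (0.0803), CD oncogene replicate 1 (0.083) or CD oncogene replicate 2 (0.0537). The call was also lost with total counts (-0.87, adjusted p = 0.0669), with only the CD groups in the fit (0.0846) and with the run term (0.29). The other pi-class genes had log2 fold changes above 0, 1.51 ± 0.60 (SE) for Gstp2 and 0.47 ± 0.21 (SE) for Gstp3, which were not called with TMM scaling (edgeR adjusted p = 0.0714 and 0.103) and were with total counts (1.80 and 0.75, adjusted p = 0.0365 and 0.0219).

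Gsta3, the leading alpha-class enzyme, stood at 1402, 1437 and 1488 CPM in the CD Vec livers, 924, 1678 and 1588 in the CD oncogene livers, 1501, 1165 and 1009 in the LPD Vec livers and 790.1, 1204 and 1089 in the LPD oncogene livers. The groups overlapped in all 4 pairwise comparisons of diet or oncogene, and its log2 fold change on CD was -0.05 ± 0.24 (SE) (edgeR adjusted p = 0.9). Gsta1 and Gsta2 of the same class had log2 fold changes of 1.91 ± 0.82 (SE) and -1.31 ± 0.51 (SE) that were not called (edgeR adjusted p = 0.0911 and 0.0652), and their summed counts had -0.54 ± 0.52 (SE). The 3 theta-class genes on chromosome 10 were not called by edgeR, with log2 fold changes of -1.16 to -0.19, and DESeq2 called Gstt3 lower (adjusted p = 0.0181). Gstt3 stood at 91.5, 28.8 and 37.8 CPM in the CD Vec livers and 16.6, 19 and 35 in the CD oncogene livers, and its log2 fold change was -0.50 without CD Vec replicate 1 (edgeR adjusted p = 0.305).

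Among the Sult genes the class 2a pair on chromosome 7 fell. Sult2a8, at chr7:14410686-14446780, stood at 779.9, 1204 and 1066 CPM in the CD Vec livers, 68.1, 184 and 219.7 in the CD oncogene livers, 890.0, 790.0 and 831 in the LPD Vec livers and 674, 374 and 637 in the LPD oncogene livers. Those of the CD oncogene livers were below all others. The log2 fold change on CD was -2.69 ± 0.38 (SE) (edgeR adjusted p = 0.000326). Its neighbor Sult2a7 stood at 3.41, 4.09 and 3.49 CPM in the CD Vec livers, 0.173, 0.204 and 0.561 in the CD oncogene livers, 1.25, 0.802 and 1.64 in the LPD Vec livers and 1.61, 1.12 and 0.874 in the LPD oncogene livers, and fell by 3.55 ± 0.44 (SE) on the log2 scale (edgeR adjusted p = 0.000138), and by 4.26 without CD oncogene replicate 3.

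Sult5a1, on chromosome 8, stood at 9.88, 42 and 28.6 CPM in the CD Vec livers, 1.33, 1.96 and 2.73 in the CD oncogene livers, 6.86, 8.87 and 18 in the LPD Vec livers and 19.8, 4.14 and 7.21 in the LPD oncogene livers. Values in the CD oncogene livers were the lowest, and the CD Vec values spanned 9.88 to 42.0 CPM. The log2 fold change on CD was -3.75 ± 0.70 (SE) (edgeR adjusted p = 0.00182). Sult1b1, which sulfates thyroid hormones, and Sult1d1, which sulfates catecholamines, are neighbors on chromosome 5. Sult1b1 stood at 32, 38.5 and 35.9 CPM in the CD Vec livers, 14.4, 11.7 and 22.5 in the CD oncogene livers, 20.6, 16 and 18.1 in the LPD Vec livers and 12.7, 8.1 and 10.8 in the LPD oncogene livers. On CD its log2 fold change was -1.13 ± 0.23 (SE) (edgeR adjusted p = 0.00272), with no overlap between the CD groups. Sult1d1 stood at 108, 208 and 117 CPM in the CD Vec livers, 67, 58.3 and 79.3 in the CD oncogene livers, 98.2, 48.1 and 71.4 in the LPD Vec livers and 60.2, 23.6 and 53.9 in the LPD oncogene livers. Its log2 fold change on CD was -1.08 ± 0.36 (SE) (edgeR adjusted p = 0.0379), and the call was lost in 5 of the 12 fits that left out 1 library, those without CD Vec replicate 2 (0.153), LPD Vec replicate 3 (0.0506) or CD oncogene replicate 1 (0.0986), 2 (0.11) or 3 (0.0542).

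Sult1a1 stood at 244, 274 and 258 CPM in the CD Vec livers, 417, 322 and 408 in the CD oncogene livers, 176, 102 and 84.6 in the LPD Vec livers and 105, 99.2 and 153 in the LPD oncogene livers. CD oncogene livers were above CD Vec livers without overlap, but the log2 fold change of 0.56 ± 0.25 (SE) was not called (edgeR adjusted p = 0.0984). With scaling by total counts it was 0.85 and called (adjusted p = 0.0108). Both LPD groups lay below both CD groups for this gene.

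The 3 Sult genes called higher on CD had low levels. Sult3a1 had 1, 0 and 1 counts in the CD Vec livers and 67, 25 and 109 counts in the CD oncogene livers. Against a floor of 3 counts per library, its mean of 2.34 CPM was at least 14.7-fold higher. CD oncogene replicate 3 carried most of this mean, at 4.08 CPM against 1.93 and 1.02 in replicates 1 and 2. In LPD oncogene livers it had 9, 44 and 8 counts, against 0 in each LPD Vec library. Its mean there, carried most by replicate 2, was at least 5.50-fold higher than the same floor. It was not called (edgeR adjusted p = 0.0511), but was with total counts and by DESeq2. Sult2b1, a cholesterol sulfotransferase, had 17, 19 and 13 counts in the CD oncogene livers and at most 3 in every other library, and was at least 3.65-fold higher than CD Vec. Sult4a1 had 0, 2 and 6 counts in the CD Vec livers and 21, 20 and 57 in the CD oncogene livers. It was not called without CD oncogene replicate 3 (adjusted p = 0.0589).

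**Figure D5:**
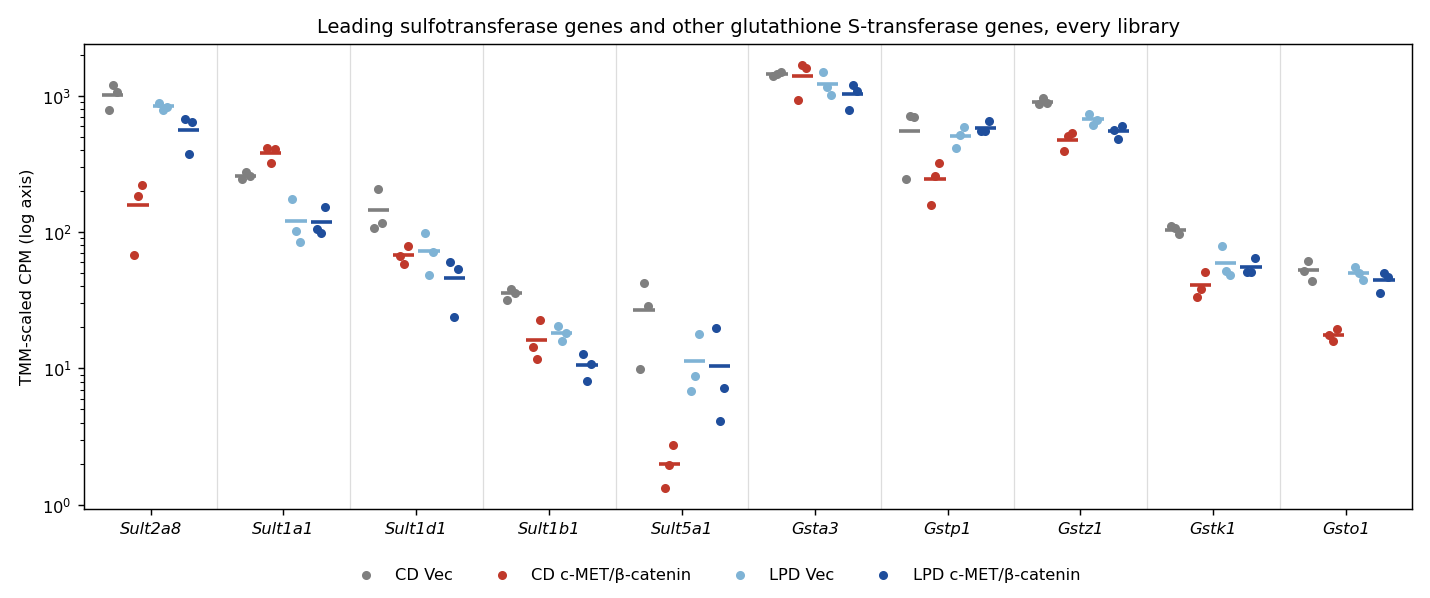
Points give TMM-scaled CPM on a log axis for 5 Sult genes and 5 Gst genes outside the mu class in every library, colored by group, with a line at the mean of 3 libraries. The CD oncogene points are the lowest for Sult2a8, Sult5a1 and Gsto1, and for Sult1a1 the CD groups lie above the LPD groups.

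On LPD, 1 of the 47 members was called between oncogene and vector livers, against 1.32% of all genes. It was Gstm2, which was higher with a log2 fold change of 1.59 ± 0.29 (SE) (edgeR adjusted p = 0.0204). The call was lost in 5 of the 12 fits that left out 1 library, those without LPD Vec replicate 1 (0.0867), 2 (0.111) or 3 (0.114) and without LPD oncogene replicate 1 (0.0565) or 2 (0.0859), and with the header runs as a term (0.0825). At an unadjusted p under 0.05, 7 of 47 members passed, against 11.1% of all genes. Gstm3 and Gstm1 were higher without overlap but not called in this fit, with log2 fold changes of 1.96 ± 0.53 (SE) and 0.96 ± 0.37 (SE) and edgeR adjusted p of 0.119 and 0.32. Gstm3 was called by DESeq2 (adjusted p = 0.00329) and by edgeR with only the LPD groups in the fit (0.0325), which also called Gstm6 higher and Sult1b1 and Sult1c2 lower.

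No Ugt gene was called on LPD in the edgeR test, with 0 of 16 at an unadjusted p under 0.05 and 0 called by DESeq2, and log2 fold changes ranged from -1.25 to 0.54. The median was -0.07 for Ugt, 0.00 for Gst and -0.12 for Sult genes. Ugt2b5 was higher in LPD oncogene than in LPD Vec livers without overlap, at 0.28 ± 0.20 (SE) (edgeR adjusted p = 0.701). Of the 16 Ugt genes, 7 had log2 fold changes above 0 and 9 below 0, and the 2 Ugt3a genes stood at -0.57 and -0.13. DESeq2 called 3 members higher, Gstm2, Gstm3 and Sult3a1, and 2 lower, Gstm5 and Sult1b1, against 2.79% and 0.775% of all genes.

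In vector livers, diet alone gave 0 called members of 47, against 0.308% of all genes. At an unadjusted p under 0.05, 11 members passed, against 9.87% of all genes. DESeq2 called 7 lower on LPD, against 1.41% of all genes, and 1 higher, against 1.03%. The 7 were Gsta2, Gstk1, Sult1a1, Sult1b1, Sult2a7, Ugt2a3 and Ugt2b1, and the 1 was Gstm5. Sult1a1 had a log2 fold change of LPD against CD of -1.10 ± 0.25 (SE) (edgeR adjusted p = 0.0876) and no overlap between the groups. Ugt2b1 and Ugt2a3 were also lower in LPD Vec than in CD Vec livers without overlap, with log2 fold changes of -1.27 ± 0.38 (SE) and -0.76 ± 0.18 (SE) that were not called (edgeR adjusted p = 0.205 and 0.0981). The median log2 fold change was -0.02 for Ugt, -0.24 for Gst and -0.99 for Sult genes.

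In oncogene livers, 14 of the 47 members were higher and 7 were lower on LPD than on CD. Over all genes, 8.66% were called higher and 11.3% lower in this comparison. By family, 9 of 16 Ugt genes were higher and 0 lower, 2 of 20 Gst genes were higher and 5 lower, and 3 of 11 Sult genes were higher and 2 lower. Ugt1a5, with a log2 fold change of -1.99 ± 0.66 (SE) and no overlap between the groups, was not among the calls (edgeR adjusted p = 0.0546) and was called lower by DESeq2 (0.0281) and with only the oncogene groups in the fit (0.0301). This comparison and that of oncogene on CD share the CD oncogene libraries, so the directions of a gene in them are not independent. The share of all genes called in both was not obtained, so the joint counts that follow describe the members only. In both comparisons the CD oncogene livers were the lower group for 14 members, the 9 Ugt genes Ugt1a6b, Ugt1a9, Ugt2a3, Ugt2b1, Ugt2b36, Ugt2b38, Ugt2b5, Ugt3a1 and Ugt3a2, the Sult genes Sult2a7, Sult2a8 and Sult5a1, and Gsto1 and Gstp1. They were the higher group in both for 4 members, Gstm2, Gstm6, Gstm7 and Sult2b1, of which Sult2b1 had met the count minimum only through these livers. Without such members, 14 were higher and 6 lower on LPD. With the header runs as a term, 14 of the 21 calls were lost, those of Gstp1, Gstp3, Sult2a7, Sult2a8, Sult2b1, Sult5a1 and 8 of the 9 Ugt genes (Ugt2b5 was still called), and Sult1b1 was called lower in addition. The 21 log2 fold changes were 55.0% to 151% of their size without the term (median 80.8%). Within run 2, the differences between its 1 CD and 3 LPD oncogene libraries were 49.7% to 166% of those over all libraries (median 78.6%). Here too the measure was the mean of log2(CPM + 0.5).

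The diet difference in oncogene livers was 3.64 ± 0.84 (SE) for Ugt2b38, 2.37 ± 0.67 (SE) for Sult5a1, 1.94 ± 0.45 (SE) for Sult2a7 and 1.84 ± 0.37 (SE) for Sult2a8 as log2 fold changes, with edgeR adjusted p of 0.0122, 0.0296, 0.0112 and 0.00589. The groups did not overlap for any of these 4 genes. The Ugt2b38 call was lost without CD oncogene replicate 1 (0.0616). Without CD oncogene replicate 3 the Sult2a7 value was 2.65. The Sult5a1 call was lost without LPD oncogene replicate 1 (1.51, adjusted p = 0.126) and without CD oncogene replicate 1 (0.115), 2 (0.0771) or 3 (0.0501). For Ugt2b5 the log2 fold change was 1.66 ± 0.20 (SE) and the edgeR adjusted p 0.000536, and for Gsto1 they were 1.33 ± 0.16 (SE) and 0.000536. Gstp1, at 1.25 ± 0.36 (SE), had an edgeR adjusted p of 0.0291 and lost the call in 5 of the 12 fits that left out 1 library (adjusted p of 0.0562 to 0.0945).

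Among the members that were lower on LPD, Gsta1 had the largest log2 fold change, -3.73 ± 0.92 (SE) (edgeR adjusted p = 0.0157). It stood at 2.55, 0.284 and 0.937 CPM in the CD Vec livers, 1.88, 2.73 and 9.77 in the CD oncogene livers, 0.576, 0.549 and 0.0 in the LPD Vec livers and 0.293, 0.491 and 0.262 in the LPD oncogene livers. The difference was carried most by CD oncogene replicate 3, and the call was lost without it (-2.67, adjusted p = 0.052) and without LPD oncogene replicate 1 (0.0589) or 3 (0.0663). With the counts of Gsta1 and its copy Gsta2 summed, the log2 fold change was -1.05 ± 0.54 (SE) and was not called (edgeR adjusted p = 0.192). Sult1a1 fell by 1.69 ± 0.26 (SE), Gstm2 by 1.22 ± 0.29 and Gstm6 by 1.10 ± 0.27 on the log2 scale, with edgeR adjusted p of 0.00135, 0.0123 and 0.014 and no overlap between the groups. Without LPD oncogene replicate 3 the adjusted p was 0.0536 for Gstm2 and 0.0621 for Gstm6, and with only the oncogene groups in the fit it was 0.0589 for Gstm6. Sult2b1 was at least 4.58-fold lower, against the floor of 3 counts per library.

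For 13 members the oncogene effect differed between the diets in the test of the interaction. Tumor burden was also lower on LPD by the paper's account, so this test cannot tell diet and tumor burden apart. The log2 fold change of oncogene against vector livers was greater on LPD than on CD for 12 of the 47 members and smaller for 1, against 4.49% and 4.42% of all genes. The 12 were 7 Ugt genes, 2 Gst genes and 3 Sult genes, and for each of them expression had fallen on CD. For Ugt2a3 the interaction was 1.87 ± 0.26 (SE) (edgeR adjusted p = 0.00325), for Gsto1 1.40 ± 0.23 (SE) (0.00577), for Sult2a7 3.52 ± 0.60 (SE) (0.0074), for Ugt2b5 1.52 ± 0.28 (SE) (0.01) and for Ugt2b1 2.79 ± 0.54 (SE) (0.0123). Of the mu-class genes that rose on CD none was called by edgeR, and DESeq2 called Gstm2 and Gstm3 (adjusted p = 0.0188 and 0.0369). For Gstm2 the interaction was -1.30 ± 0.40 (SE) (edgeR adjusted p = 0.0661).

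In this edgeR fit, Gstm5 was the 1 member with a called interaction below 0, whereas DESeq2 called 3 and edgeR without CD oncogene replicate 1 called 4. It stood at 6.67, 7.5 and 7.23 CPM in the CD Vec livers, 9.9, 8.16 and 9.21 in the CD oncogene livers, 10.1, 11.3 and 12.6 in the LPD Vec livers and 6.4, 7.15 and 8.48 in the LPD oncogene livers. The log2 fold changes on CD and LPD were 0.35 ± 0.16 (SE) and -0.62 ± 0.16 (SE), neither of them called with TMM scaling (edgeR adjusted p = 0.115 and 0.0973), and the interaction was -0.97 ± 0.23 (SE) (0.0256). On CD it was called with total counts (0.64, adjusted p = 0.00911), and on LPD by DESeq2. With total counts the interaction calls of Ugt2b36, Ugt3a1 and Ugt3a2 were lost. With the header runs as a term, 0 interactions were called for members in the edgeR fit (20 of 47 at an unadjusted p under 0.05, against 14.7% of all genes). With this term the 13 interactions kept 54.4% to 99.7% of their size (median 79.2%). Within run 2, which held 1 library of each CD group, the interaction was taken from means of log2(CPM + 0.5). It was 72% to 109% of the same measure over all libraries (median 80.9%). For Sult2a7, a gene of few counts, this measure gave 1.92 in run 2 and 2.37 over all libraries, against 3.52 in edgeR. The number of called interactions was 5 to 15 in the fits that left out 1 library, lowest without LPD Vec replicate 2.

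The genes that supply donors to these enzymes or act beside them were followed as a fixed list, of which 38 were tested. On CD, 13 were lower and 5 were higher in oncogene livers, against 16.7% and 18.7% of all genes. The 5 were Ugdh, which makes UDP-glucuronic acid (0.81 ± 0.25 as log2 fold change ± SE), Gss and Gsr, which make and regenerate glutathione, Abcc4, an exporter of conjugates, and Ahr, a receptor for aromatic compounds that induces Ugt1a and Gst genes. In the same supply and export lists, Ugp2, which makes UDP-glucose, Bpnt1, which breaks down the product left from PAPS, Cth, which makes cysteine for glutathione, and the exporters Abcc3 and Abcg2 were lower, with log2 fold changes of -0.67, -0.66, -1.85, -2.24 and -1.54 (edgeR adjusted p = 0.0411, 0.00188, 0.00262, 0.00578 and 3.99e-05). Conjugate exporters were thus called higher for 1 of 4 and lower for 2. Of the 8 other conjugating enzymes, 5 were lower, among them Baat and Glyat, which join amino acids to bile acids and acyl groups, at -1.85 and -1.55 as log2 fold changes. Mgst1, the main microsomal glutathione transferase, had a log2 fold change of -1.26 and an edgeR adjusted p of 0.000121. Nr1i3, the receptor CAR, was lower (-1.33), whereas Nfe2l2, which acts through the antioxidant response element, had a log2 fold change of 0.12 that was not called (edgeR adjusted p = 0.598). On LPD, 1 of the 38 was called, Abcc4, against 1.32% of all genes. In vector livers 0 were called between diets in the edgeR test, against 0.308% of all genes, with 8 at an unadjusted p under 0.05 (9.87% of all genes) and 2 called by DESeq2 (1.03% of all genes higher and 1.41% lower). In oncogene livers 7 were higher and 4 lower on LPD than on CD, against 8.66% and 11.3% of all genes.

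Markers of liver zones and other cells differed between the same groups. Their counts stand against 18.7% of all genes called higher and 16.7% called lower on CD, and 1.32% called on LPD. On CD, 5 of 5 periportal hepatocyte markers were lower in oncogene livers, and their summed level was 188 to 388 CPM against 2531 to 2744 CPM in CD Vec livers. On LPD, 0 of 5 were called in the edgeR test, with 0 at an unadjusted p under 0.05 and 0 called by DESeq2, at 1602 to 1984 CPM against 1727 to 2011 CPM. Of 6 pericentral markers, 5 were higher on CD and 4 on LPD, and Glul, a β-catenin target, had log2 fold changes of 3.10 and 1.71. Proliferation markers Mki67 and Top2a summed to 1.65 to 6.19 CPM in CD Vec, 72.3 to 107 in CD oncogene, 2.87 to 3.64 in LPD Vec and 10.5 to 32.3 in LPD oncogene livers. Between diets in oncogene livers, 4 of 5 periportal markers were higher on LPD and 4 of 6 pericentral markers lower. The 2 proliferation markers, 2 of 5 cholangiocyte and 2 of 2 neutrophil markers were also lower. Of all genes, 8.66% were higher and 11.3% lower. For the interaction, 4 periportal markers were called above 0 and 3 pericentral markers below 0, against 4.49% and 4.42% of all genes.

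Cholangiocyte markers were higher for 2 of 5 genes on CD, Krt19 and Spp1, and summed to 121 to 381 CPM against 36.8 to 46.3 CPM in CD Vec livers. Stellate cell or fibroblast markers were higher for 2 of 5 and lower for 1, and summed to 88.4 to 398 CPM against 54.6 to 102 CPM. Macrophage markers were higher for 1 of 5, T and NK cell markers for 1 of 4 and neutrophil markers for 2 of 2 tested, endothelial markers were lower for 1 of 5, and 0 of 3 B cell markers were called in this edgeR comparison, with 0 at an unadjusted p under 0.05 and 0 called by DESeq2. No listed marker was at 0 counts in every library. The part of these differences in the results for conjugation enzymes was not tested.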

How the data were processed

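Liver RNA of 12 mice was sequenced, with 3 libraries per group, and nothing states whether mice shared a cage or litter. Values in the table are whole-number read counts per gene, deposited by the authors without normalization. Per the authors' methods and the labels, reads were aligned to mm10 with HISAT2 and counted with featureCounts under Entrez identifiers. Versions, strand setting and treatment of reads with several matches are not given in the sources used here. The labels describe ribosomal RNA depletion and the methods mRNA selection, and the sources name more than 1 mouse background. Column names call the chow group HPD, and the labels were followed.

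Symbols came from RefSeq for GRCm38.p6 (25275 genes) and GENCODE M21 (18), and 1886 genes had none. Counts were tested in R 4.3.3 with edgeR 4.0.16 (TMM, filterByExpr, quasi-likelihood test with robust dispersion), with all 4 groups in 1 fit and no covariate, over 13947 genes, adjusted by the Benjamini-Hochberg method. The biological coefficient of variation was 23.2%. On simulated data with 200 genes changed 4-fold for oncogene on CD, 83.5% were called and 5.65% of calls were false. The interaction is the log2 fold change on LPD minus that on CD. SE was derived from the log2 fold change and its F statistic. Levels per kilobase used exon bases not shared with another gene. Genes at up to 3 counts in every library of a group were given as bounds against 3 counts per library. Alternatives were DESeq2 1.42.0, scaling by total counts, no filter, only the groups compared, runs of the dataset numbers in the header as a term, the replicate number as a block, summed copies and leaving out each library. Totals of 19476209 to 31990267 counts limit the precision of genes below 1 CPM. Each p-value sets a difference between groups against the variation among livers within groups, estimated with information shared across genes.

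Members and gene lists were chosen with earlier results of these data known. Values in every library were given for the 4 members of each family with the highest level per kilobase, for up to 4 called members with the largest change in each direction of a comparison and a mean of at least 1 CPM, and for up to 10 members with a called interaction. Others named are examples from the lists or neighbors of these.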

Additional observations from a re-analysis of the deposited data

Results flagged for a closer look

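The oncogene effect on 13 members differed between the diets by a test of the difference itself, the interaction in the edgeR fit. Each value is the oncogene effect on LPD less the oncogene effect on CD, in log2 units, with its SE, and the last number says in how many of 12 fits that left out 1 library the call held.

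Ugt2a3 had 1.87 ± 0.26 (SE) (edgeR adjusted p = 0.00325) and was called in 12 of 12. Gsto1 had 1.40 ± 0.23 (SE) (edgeR adjusted p = 0.00577) and was called in 12 of 12. Sult2a7 had 3.52 ± 0.60 (SE) (edgeR adjusted p = 0.0074) and was called in 12 of 12. It was 4.23 without CD oncogene replicate 3. Ugt2b5 had 1.52 ± 0.28 (SE) (edgeR adjusted p = 0.01) and was called in 12 of 12. Ugt2b1 had 2.79 ± 0.54 (SE) (edgeR adjusted p = 0.0123) and was called in 12 of 12. Ugt2b38 had 5.02 ± 1.11 (SE) (edgeR adjusted p = 0.0222) and was called in 10 of 12, with adjusted p of 0.0585 to 0.063 in the others. It was 3.55 without CD Vec replicate 2, and 1.58 with the counts of Ugt2b38 and Ugt2b5 summed.

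Gstk1 had 1.24 ± 0.28 (SE) (edgeR adjusted p = 0.0232) and was called in 9 of 12, with adjusted p of 0.0604 to 0.0735 in the others. Gstm5 had -0.97 ± 0.23 (SE) (edgeR adjusted p = 0.0256) and was called in 8 of 12, with adjusted p of 0.0561 to 0.074 in the others. Ugt3a2 had 0.92 ± 0.22 (SE) (edgeR adjusted p = 0.0278) and was called in 6 of 12, with adjusted p of 0.0511 to 0.0857 in the others. Sult2a8 had 2.12 ± 0.51 (SE) (edgeR adjusted p = 0.0282) and was called in 6 of 12, with adjusted p of 0.0538 to 0.0782 in the others. Sult5a1 had 3.63 ± 0.91 (SE) (edgeR adjusted p = 0.0344) and was called in 4 of 12, with adjusted p of 0.0516 to 0.0905 in the others. It was 2.76 without LPD oncogene replicate 1. Ugt2b36 had 1.03 ± 0.28 (SE) (edgeR adjusted p = 0.0406) and was called in 2 of 12, with adjusted p of 0.052 to 0.102 in the others. Ugt3a1 had 1.53 ± 0.42 (SE) (edgeR adjusted p = 0.0438) and was called in 2 of 12, with adjusted p of 0.0511 to 0.115 in the others. Calls were lost most often without LPD Vec replicate 2. With the header runs as a term in the fit, 0 of the 13 were called (edgeR), with adjusted p of 0.0607 to 0.366. The 13 values kept 54.4% (Ugt3a1) to 99.7% (Ugt2b38) of their size, and the causes were not tested.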

How the results depend on the processing

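The number of members called on CD (28), between diets in oncogene livers (21) and for the interaction (13) stayed within 1.5 times under total counts, no filter, summed copies and DESeq2, and, for the former 2, with only the groups compared. With the header runs as a term, 8, 8 and 0 members were called, and 0 for oncogene on LPD. The runs hold unequal parts of the groups, so this fit rests on fewer comparable libraries. At an adjusted p under 0.05, the share of all genes called was not obtained for this fit or for total counts. For oncogene on LPD (1 member), 2 were called with total counts, 2 with no filter, 5 with only the groups compared and 5 by DESeq2. For diet in Vec (0 members), 8 were called by DESeq2. Leaving out 1 library gave 25 to 30 members on CD, 0 to 2 on LPD, 0 to 2 for diet in Vec, 15 to 22 for diet in oncogene livers and 5 to 15 for the interaction. Of the calls, 21 of 28 on CD, 11 of 21 for diet in oncogene livers and 5 of 13 for the interaction held in all 12 such fits.

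Gsta3, which was not called on CD, changed sign to 0.24 with total counts, 0.27 with the run term and 0.18 without CD oncogene replicate 1 (-0.20 to 0.18 over the fits that left out 1 library). Gstm1 between diets in oncogene livers, not called, changed sign to 0.15 without CD oncogene replicate 3 (-0.62 to 0.15). Total counts moved the family medians on CD to -0.67 for Ugt, 0.63 for Gst and -0.78 for Sult genes, with a median of 0.28 over all genes.

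Replicate numbers were not taken to pair samples. Deviations of libraries with the same number correlated at -0.18 to 0.17, and 3 of 12 libraries correlated best with their own number. With the replicate number as a block, 29 members were called on CD, 1 on LPD, 0 for diet in Vec, 20 for diet in oncogene livers and 12 for the interaction. Summing members by protein identity was not run, and coding sequence identity, chosen after seeing the data, took its place with 42 features. The comparison within run 2 was also chosen after seeing the data.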

Other observations

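Ugt1a5 and Sult1e1 varied widely within a group. Ugt1a5, which shares its last exons with Ugt1a1, stood at 22, 2.73 and 14.5 CPM in the CD Vec livers, 19, 17.5 and 24.6 in the CD oncogene livers, 13.9, 16.3 and 6.31 in the LPD Vec livers and 2.88, 9.36 and 2.93 in the LPD oncogene livers. CD Vec replicate 2 and LPD oncogene replicates 1 and 3 were the lowest. Sult1e1, an estrogen sulfotransferase, stood at 0.204, 1.65 and 0.573 CPM in the CD Vec livers, 5.37, 0.938 and 1.16 in the CD oncogene livers, 0.288, 0.169 and 0.0 in the LPD Vec livers and 1.32, 0.14 and 0.175 in the LPD oncogene livers, with CD oncogene replicate 1 the highest of all. These genes were chosen after their values were seen.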
